A study of Mus musculus with 15 samples.

Results

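Liver tumours of floxed control mice were compared with normal mouse liver over all genes. The 6 tumour libraries and 3 normal liver libraries were taken by their labels, 9 of the 15 libraries of the series, and 13784 of 23284 gene symbols in the count table had enough counts to be tested. The tumours, labelled as hepatocellular carcinoma, came from Hmgb1 fl/fl mice, which carry loxP sites at Hmgb1 and, with no Cre driver named for them, keep the gene. These mice had received diethylnitrosamine (DEN) on day 15 after birth, by the intraperitoneal route at 25 mg/kg, followed by carbon tetrachloride (CCl4) in corn oil, at 0.5 µl/g once a week for 15 weeks from the age of 8 weeks. The normal livers came from C57Bl/6 control mice, for which no treatment, vehicle or age is given. The labels do not give the strain or sex of the tumour mice, a litter or a batch, or whether any tumours shared a mouse, and the p-values thus refer to the spread among these libraries, part of which may be technical. No treated liver without a tumour was among the samples, so the effects of tumour, DEN, CCl4, age and possibly strain cannot be told apart.

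Hepatocytes, the main cells of the liver, make most plasma proteins, bile acids and urea, burn and build fatty acids and break down drugs, and they divide these tasks between zones around the portal and the central veins. DEN is turned into a DNA-alkylating agent by cytochrome P450 enzymes of hepatocytes. CCl4 is turned by Cyp2e1, a P450 of pericentral hepatocytes, into a radical that kills them, and repeated doses bring regeneration, inflammation and scarring. Rodent liver tumours are known for the loss of adult liver functions and the return of genes of the fetal liver.

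Total counts were 20191452 to 30929442 in the tumours and 23193714 to 26997782 in the normal livers, and a gene with 0 counts in a library could have been present at up to 0.118 to 0.169 CPM (counts per 1000000 counts of the scaled library total) by counting error alone. On the principal components of log2 CPM over the 9 libraries, the first component (68.3% of the variance) held the normal livers at 88.7 to 90.6 and the tumours at -56.2 to -35.2. Tumour 5 stood apart from the other tumours on the second component (10.8%), at -65.2 against -0.89 to 27.6, and 52 of 8419 genes were at least 4-fold higher in it than in the next tumour, against 0 to 7 genes in each other tumour. Where leaving out 1 library moved the fold change of a called gene given below by over 1.5 times, the value without that library stands beside it. The median SD of log2 CPM was 0.32 among the tumours and 0.17 among the normal livers.

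**Figure D1:**
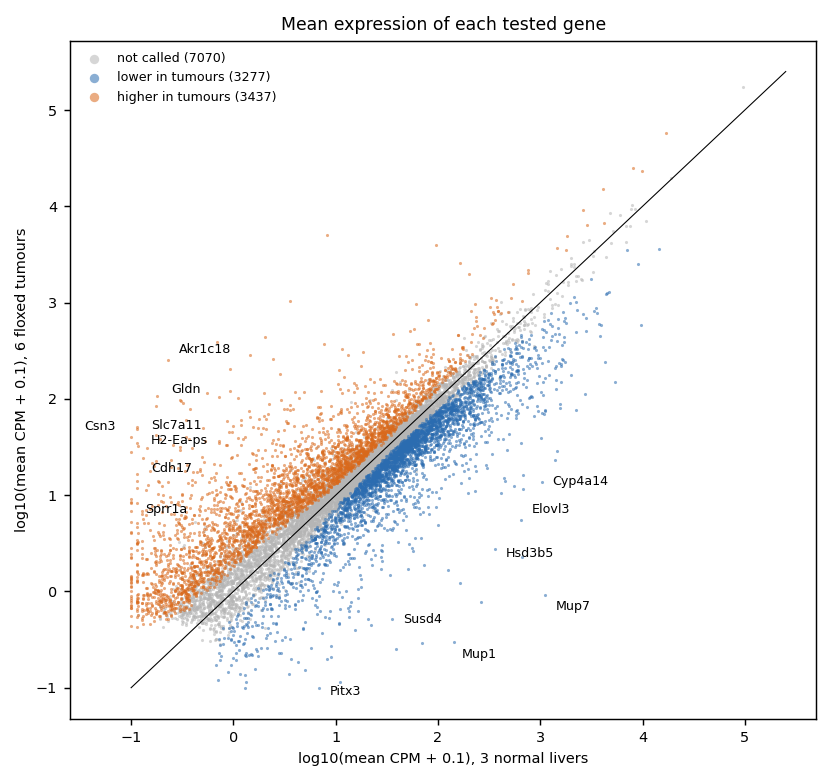
Mean CPM of each tested gene in the 3 normal livers (horizontal axis) against its mean in the 6 floxed tumours (vertical axis), both as log10(CPM + 0.1), with genes called higher in orange, called lower in blue and not called in grey. The labelled genes are among those with the highest and lowest fold changes of the called genes. Cyp4a14, Elovl3 and Mup7, each over 100 CPM in normal liver, lie below 30 CPM in the tumours. H2-Ea-ps, which C57Bl/6 mice do not express, and Akr1c18 lie under 1 CPM in normal liver and over 30 CPM in the tumours.

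Hmgb1, the gene that the study deletes in its other tumours, was at 23.3 to 31.8 CPM (median 28) in the tumours and 19.1, 21.8 and 30.7 CPM in normal livers. The groups overlapped, with normal liver 3 inside the range of the tumours. The difference of 0.24 in mean log2(CPM + 1) did not pass an exact two-sided permutation test (p = 0.155; the smallest p that 6 against 3 samples allow is 0.0119). Without normal liver 3 the difference was 0.42 (exact permutation p = 0.0357, the smallest possible), and on library totals with no scaling factor it was 0.31 (exact permutation p = 0.0476). Without normal liver 1 it shrank to 0.0965 (exact permutation p = 0.5), and without normal liver 2 to 0.187 (exact permutation p = 0.393).

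The libraries carried the marks of liver from males. Albumin mRNA took 11.2% to 19.6% of counts in the tumours and 7.66% to 9.37% in the normal livers, and Alb was at 88562 to 241430.00 CPM (median 183723) in the tumours and 97549.7, 82658 and 107043 CPM in normal livers (log2 fold change 0.86 ± 0.37, adjusted p = 0.075). The Y-linked helicase gene Ddx3y was at 64 to 94.5 CPM (median 68.9) in the tumours and 80.6, 60.8 and 98.5 CPM in normal livers, and Xist, the RNA of the inactive X chromosome, did not pass 0.985 CPM in any library. H2-Ea-ps, the MHC class II E alpha chain gene, which C57Bl/6 mice do not express, was at 30.5 to 85.7 CPM (median 42.4) in the tumours and 0, 0.0407 and 0 CPM in normal livers, with no overlap. Nnt, the mitochondrial transhydrogenase that a C57Bl/6 substrain lacks in part, was at 35.9 to 101 CPM (median 60.3) in the tumours and 207, 181 and 59.6 CPM in normal livers, with normal liver 3 inside the range of the tumours. Glo1 and Wdfy1 are also listed as differing between strains. Glo1 was at 64.6 to 98.4 CPM in the tumours and 316, 296 and 258 CPM in normal livers, with no overlap, and Wdfy1 was not called. Markers of the exocrine and endocrine pancreas were at or near 0 in all 9 libraries apart from Cela1 and Cela2a. The fat cell genes Adipoq, Plin1 and Lep were at most 0.0544 CPM. Fabp4 and Cidec, also counted as fat cell genes and given below, were called higher in the tumours. The summed fat cell list, mostly Fabp4 and Cidec, was 35.9 to 258 CPM in the tumours and 8.61 to 9.65 CPM in the normal livers. The globin genes Hba-a1, Hba-a2, Hbb-b1 and Hbb-b2 are listed at 0 in every library, which is not read here as absence of blood cells. The summed erythroid list was 8.4 to 49.6 CPM in the tumours and 141 to 158 CPM in the normal livers. The erythroid gene Alas2, given below, made up most of this sum, which is thus not a measure of erythroid cell number.

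In all, 6714 of 13784 tested genes were called changed (48.7%) by edgeR's quasi-likelihood test at a Benjamini-Hochberg adjusted p under 0.05. Of these, 3437 were higher in tumours (24.9% of the tested genes) and 3277 lower (23.8%), and the median log2 fold change over all tested genes was 0.06. With upper-quartile scaling the split was 4363 higher and 2509 lower, and the median of all genes moved up by 0.18. Changes of at least 2-fold numbered 2396 higher (17.4%) and 1548 lower (11.2%). Every tumour lay above every normal liver for 3153 genes (22.9%) and below for 3225 genes (23.4%). Each count below is read against these shares. Adjusted p-values below are from the same fit, over all tested genes, and values after ± beside a log2 fold change are standard errors. In bulk tissue, fewer cells of a type and less RNA per cell cannot be told apart.

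**Figure D2:**
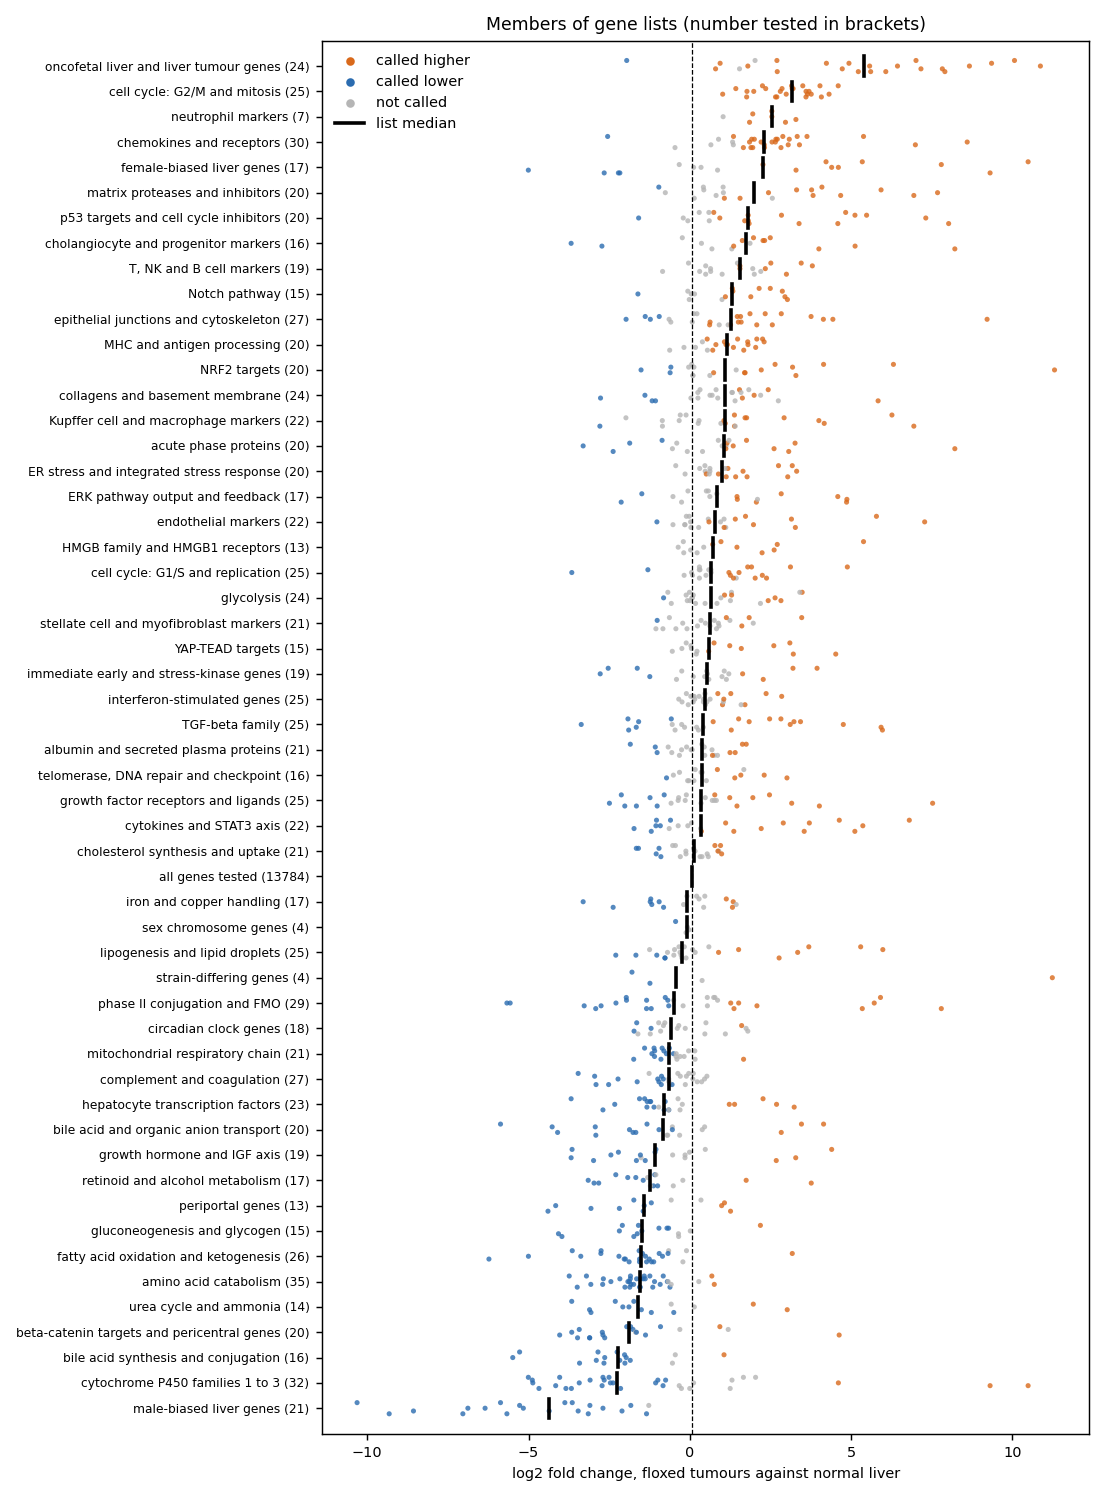
Log2 fold change, floxed tumours against normal liver, of each tested member (points) of 53 gene lists with at least 4 tested members, with the median of each list as a black bar and the median of all tested genes (0.06) as a dashed line. Orange points were called higher, blue called lower and grey not called; the list of oncofetal genes has the highest median (5.4) and the male-biased liver genes the lowest (-4.36).

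The deepest falls in the tumours were in genes that male liver makes in excess. Of the 21 tested male-biased liver genes, 20 fell and 0 rose, with a median log2 fold change of -4.36, and in 20 of them every tumour lay below every normal liver. Hsd3b5, a steroid dehydrogenase of male liver, was at 0 to 9.01 CPM (median 1.08) in the tumours and 314, 420.3 and 339 CPM in normal livers. The highest tumour stayed far below the lowest normal liver (log2 fold change -7.04 ± 0.92, adjusted p = 0.000188, and -7.99 without tumour 5). Elovl3, a fatty acid elongase, was at 0.73 to 11.9 CPM (median 4.66) in the tumours and 1016, 680.3 and 229.6 CPM in normal livers and likewise did not overlap (-6.88 ± 0.8, adjusted p = 9.82e-05). Slco1a1, an organic anion carrier, fell by 5.87 ± 0.59. Susd4, a complement regulator, fell by 6.35 ± 0.4. Cyp7b1, an oxysterol hydroxylase, fell by 5.28 ± 0.48. Cyp4a12a, a fatty acid hydroxylase, fell by 3.64 ± 0.73 on the log2 scale. The major urinary proteins (Mup), pheromone carriers that male liver secretes into the urine, fell furthest: 14 of 15 tested Mup genes were lower and none was higher, with a median of -7.74. Mup7 was at 0 to 2.78 CPM (median 0.487) in the tumours and 1219.9, 1261 and 841 CPM in normal livers, and Mup1, Mup11, Mup12, Mup14, Mup15, Mup16 and Mup17 were also among the 15 largest falls, at -7.13 to -9.32. Without tumour 4 the values of Mup1, Mup11, Mup12 and Mup14 lay further down, at -10.4, -10.05, -9.21 and -7.83, and without tumour 6 those of Mup7 and Mup16, at -11.26 and -8.48. Mup genes are near-identical copies, so their single values are uncertain. The other large falls were of Pitx3, a homeobox gene at 14.7, 4.89 and 0.739 CPM in normal livers with 0 counts in the tumours (at least 309.6-fold lower, against 3 counts over the tumours, and at least 130.5-fold without normal liver 1), Rfx4, a transcription factor of the RFX family (-6.27 ± 0.45, adjusted p = 6.18e-06), Cyp4a14, a fatty acid hydroxylase (-6.23 ± 0.89, adjusted p = 0.000346, and -5.54 without normal liver 1), and LOC100048884 (-6.26 ± 0.54, adjusted p = 1.78e-05).

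Female-biased liver genes did not move as a block. Of 17 tested members 9 were higher and 4 lower, with a median of 2.27, and without normal liver 2 the number higher was 5. Cyp2a4, a steroid hydroxylase of female liver, was at 535 to 12550.3 CPM (median 2829) in the tumours and 4.92, 3.87 and 15.4 CPM in normal livers. Every tumour exceeded every normal liver (9.31 ± 1.35, adjusted p = 0.00038, and 10.16 without normal liver 3), although Cyp2a4 is a close copy of Cyp2a5 and the split of reads between them is uncertain. Cyp2b13 had no count in the normal livers and 0.248 to 29.4 CPM (median 3.84) in the tumours, at least 175-fold higher against 3 counts over the group and at least 91.2-fold without tumour 3. Abcd2, a peroxisomal transporter, was at 56.5 to 178 CPM (median 112) in the tumours and 23.5, 16.5 and 31.3 CPM in normal livers (2.27 ± 0.36, adjusted p = 0.00058). Cyp2b10 and the prolactin receptor Prlr went the other way, at -5.01 (-5.88 without tumour 3) and -2.21.

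Growth hormone sets the sex bias of liver genes through its receptor and STAT5B, and it drives the secretion of IGF1 by hepatocytes. These genes were lower in the tumours. Ghr, the growth hormone receptor, was at 89.4 to 132 CPM (median 103) in the tumours and 735, 829 and 904 CPM in normal livers, and no tumour reached the lowest of the normal livers (-2.98 ± 0.17, adjusted p = 1.53e-06). Stat5b was at 36.2 to 51.4 CPM (median 43.6) in the tumours and 131, 109 and 94.4 CPM in normal livers (-1.38 ± 0.14, adjusted p = 4.5e-05). Igf1 was at 68.1 to 185 CPM (median 129) in the tumours and 669, 782 and 731 CPM in normal livers (-2.45 ± 0.26, adjusted p = 5.57e-05), and Igfals, the subunit that holds IGF1 in the circulation, fell by 3.65 ± 0.26. Each of these 4 genes was lower in all 6 tumours than in all 3 normal livers. Igfbp1, a binding protein that restrains IGFs, went up, from 154, 403 and 48.6 CPM to between 1386 and 2478 CPM (3.28 ± 0.59, adjusted p = 0.00129, and 4.28 without normal liver 2). In the whole growth hormone and IGF list 10 of 19 tested members were lower and 3 higher, with a median of -1.08; without normal liver 3 the number higher was 1.

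Genes of bile acid synthesis fell along almost the whole pathway. Of 16 tested enzymes of synthesis and conjugation, 13 fell, with a median of -2.21, and in 13 every tumour lay below every normal liver. Cyp8b1, the sterol 12-alpha-hydroxylase that makes cholic acid, was at 6.12 to 18.4 CPM (median 12.3) in the tumours and 524, 419.7 and 731 CPM in normal livers. The groups lay far apart (-5.49 ± 0.31, adjusted p = 1.56e-06). Cyp7a1, the rate-limiting enzyme, was at 1.54 to 9.99 CPM (median 7.19) in the tumours and 30.0, 56.5 and 128 CPM in normal livers, again with no overlap (-3.42 ± 0.52, adjusted p = 0.000498, and -2.72 without normal liver 3). Cyp27a1, which starts the acidic pathway, fell by 2.9 ± 0.21. Hsd3b7 fell by 2.66 ± 0.16. Akr1c6 fell by 2.85 ± 0.31. Slc27a5, which activates bile acids with coenzyme A, fell by 2.25 ± 0.28. Baat, which conjugates them with taurine, fell by 2.17 ± 0.31. Cyp39a1, an oxysterol hydroxylase, was the member called higher, at 19.6 to 57 CPM (median 55) in the tumours and 24.8, 26 and 19.5 CPM in normal livers (1.06 ± 0.3, adjusted p = 0.0137, and adjusted p = 0.0797 with all 15 libraries in 1 fit). Its call ended without normal liver 3 (without normal liver 3, 0.93 with adjusted p = 0.0699). Fxr, listed as Nr1h4, the bile acid receptor, was at 50.2 to 76.2 CPM (median 61.9) in the tumours and 151, 163 and 172 CPM in normal livers (-1.4 ± 0.15, adjusted p = 5.69e-05).

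The promoter of Cyp8b1 is shown because this gene had the largest fall of the list and its start region holds the motif of a hepatocyte factor. The sequence is from RefSeq (GRCm38.p6, chr9:121916306-121916425, minus strand), 5′ to 3′, and covers the 120 bases before the transcription start; the capitals mark the letters CAAAGTC, part of the site that the nuclear receptor HNF4A binds.
Cyp8b1: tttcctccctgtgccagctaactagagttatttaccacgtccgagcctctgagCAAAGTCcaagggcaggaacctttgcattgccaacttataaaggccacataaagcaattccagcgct
Searched on both strands in windows of 300 bases around the start (250 before, 50 after), CAAAGTC was found in 3 of the 9 bile acid genes with a window, against 4.12% of the 9808 tested genes with one. The share was 4.25% of the lower genes and 4.49% of the higher genes. Among other lists it was found in 11 of 29 P450 genes, 6 of 17 female-biased genes and 0 of 19 genes of fatty acid oxidation and ketogenesis. Hnf4a itself was at 349.6 to 994 CPM (median 559) in the tumours and 854, 799 and 640.5 CPM in normal livers and was not called (-0.36 ± 0.28, adjusted p = 0.304).

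Bile acid and drug carriers of the hepatocyte membrane fell as well. Of 20 tested members 11 were lower and 3 higher (median -0.83). Slc10a1, the bile acid importer NTCP, was at 52.8 to 132 CPM (median 109) in the tumours and 650.4, 748 and 925 CPM in normal livers and did not overlap (-2.91 ± 0.27, adjusted p = 2.35e-05). Slco1b2, an importer of bilirubin and drugs, was at 50.1 to 166 CPM (median 64) in the tumours and 1575, 1509 and 1589.6 CPM in normal livers (-4.27 ± 0.37, adjusted p = 1.62e-05), and Abcb11, the bile salt export pump, fell by 1.87 ± 0.3. The 3 members that rose are exporters: Abcc4, a basolateral pump, at 14.3 to 79.1 CPM (median 62.5) in the tumours and 3.7, 2.77 and 3.15 CPM in normal livers (4.15 ± 0.53, adjusted p = 0.000168), the drug efflux pump Abcb1a (2.84 ± 0.39, adjusted p = 0.000257) and Slc51b, listed as Ostb, a subunit of the bile acid exporter OST (3.46 ± 0.96, adjusted p = 0.0131; without normal liver 1, 3.02 with adjusted p = 0.0595).

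Cytochrome P450 genes of families 1 to 3, which oxidise drugs and steroids, were lower in 21 of 32 tested cases and higher in 3, the female-biased Cyp2a4, Cyp2b9 and Cyp2b13 (median -2.26). Cyp2e1, which activates both CCl4 and DEN, was at 185 to 1358 CPM (median 448) in the tumours and 8853, 8772 and 11468 CPM in normal livers. The highest tumour stayed below the lowest normal liver (-4.03 ± 0.51, adjusted p = 0.000151). Cyp2c50 was at 16.1 to 62.1 CPM (median 40.4) in the tumours and 1053, 942 and 1061 CPM in normal livers (-4.68 ± 0.41, adjusted p = 1.82e-05). Cyp2f2, a periportal P450, was at 49.9 to 135 CPM (median 83.5) in the tumours and 1584, 1732 and 1389 CPM in normal livers (-4.16 ± 0.31, adjusted p = 6.32e-06). Cyp1a2 was at 44.1 to 139 CPM (median 77.5) in the tumours and 903, 923 and 939 CPM in normal livers (-3.43 ± 0.37, adjusted p = 6.16e-05). Cyp3a11, the main drug-oxidising P450 of mouse liver, fell by 2.72 ± 0.41. Cyp2b9 was not higher in every tumour: it was at 1.39, 217, 171, 117, 64.3 and 45.1 CPM in tumours 1 to 6 and 6.7, 1.38 and 4.63 CPM in normal livers 1 to 3, with tumour 1 no higher than the normal livers, and its call ended without normal liver 2 (without normal liver 2, 4.18 with adjusted p = 0.0515). Many genes of the Cyp2 and Cyp3 families have close copies, so single values are uncertain.

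Genes of retinoid and alcohol metabolism were lower in 10 of 17 tested cases and higher in 2 (median -1.22). Rdh16, a retinol dehydrogenase, was at 12.9 to 16.9 CPM (median 14.8) in the tumours and 117, 95.6 and 136 CPM in normal livers, and the 6 tumours lay close together below the normal livers (-2.97 ± 0.14, adjusted p = 9.09e-07). Adh4, an alcohol dehydrogenase, fell by 3.15 ± 0.28. Aldh1a1, a retinal dehydrogenase, fell by 2.82 ± 0.31. Aldh3a2, which oxidises fatty aldehydes, fell by 2.29 ± 0.26. Adh1, the main alcohol dehydrogenase of liver, was not called at 1394 to 2263 CPM (median 1637) in the tumours and 2173, 2581 and 2815 CPM in normal livers.

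Conjugating enzymes and antioxidant genes split. Of 29 tested conjugation genes 14 were lower and 8 higher. Ugt2b1, a glucuronosyltransferase, fell by 3.27 ± 0.23. Ugt1a1, which clears bilirubin, fell by 2.92 ± 0.49. The glutathione transferases Gsta1 and Gstm1 rose by 5.91 (6.6 without normal liver 3) and 1.52. Of 20 tested targets of NRF2, the factor that answers oxidative stress, 10 were higher (median 1.09). Slc7a11, the cystine importer that supplies glutathione synthesis, had 1 count over the 3 normal livers and 8.93 to 96.6 CPM (median 45.9) in the tumours (11.31 ± 1.19, adjusted p = 5.31e-05). By summed counts the ratio was 3455, with a 95% interval for counting error of 620 to 136470. Normal liver 1 held that count, so the value of 13.11 without it has no normal liver count behind it and is not a measured fold. Srxn1, a sulfiredoxin, was at 195 to 976 CPM (median 527) in the tumours and 59.6, 61.4 and 54.1 CPM in normal livers (3.19 ± 0.51, adjusted p = 0.000621). Nqo1, a quinone reductase, was at 36.7 to 110.3 CPM (median 45) in the tumours and 6.01, 5.66 and 7.78 CPM in normal livers (3.29 ± 0.47, adjusted p = 0.000305). Neither gene overlapped between the groups. The pentose phosphate enzymes G6pdx and Pgd rose by 2.64 and 1.7. Other targets did not follow: Gclc was at 350.3 to 812 CPM (median 596) in the tumours and 769, 567 and 438 CPM in normal livers and was not called, and Me1, malic enzyme, was lower (-1.51 ± 0.21, adjusted p = 0.000297).

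The genes that burn fat fell. Of 26 tested genes of fatty acid oxidation and ketogenesis 22 fell and 1 rose (median -1.51), and in 21 every tumour lay below every normal liver. Cpt2, the inner carnitine palmitoyltransferase of mitochondria, was at 41.3 to 62.9 CPM (median 56.9) in the tumours and 242, 220.1 and 196 CPM in normal livers (-2.0 ± 0.15, adjusted p = 7.43e-06). Hadha, a subunit of the trifunctional protein, was at 125 to 208 CPM (median 173) in the tumours and 556, 512 and 445 CPM in normal livers (-1.56 ± 0.18, adjusted p = 9.75e-05). For both genes every tumour lay below every normal liver. Ppara, the nuclear receptor that switches this programme on, was at 60.8 to 228 CPM (median 129.9) in the tumours and 383, 344 and 447 CPM in normal livers (-1.56 ± 0.32, adjusted p = 0.00281). Fgf21, a fasting hormone of liver, was the member that rose, at 1.1 to 14.9 CPM (median 7.11) in the tumours and 0.894, 1.18 and 0.345 CPM in normal livers (3.18 ± 0.78, adjusted p = 0.00707, and adjusted p = 0.05001 with all 15 libraries in 1 fit).

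Genes of nitrogen handling fell too. Of 14 tested genes of the urea cycle and ammonia handling 10 fell (median -1.62), and of 35 genes of amino acid breakdown 30 fell (median -1.56). Cps1, the entry enzyme of the urea cycle, was at 335 to 628 CPM (median 421) in the tumours and 3995, 4071 and 3365 CPM in normal livers. The 6 tumours lay in a narrow band far below the normal livers (-3.06 ± 0.25, adjusted p = 1.18e-05). Otc was at 56.1 to 238 CPM (median 198) in the tumours and 646, 624 and 820.2 CPM in normal livers (-2.08 ± 0.39, adjusted p = 0.00158). Ass1 was at 26.3 to 65.4 CPM (median 51.8) in the tumours and 132, 147 and 205 CPM in normal livers (-1.74 ± 0.29, adjusted p = 0.000809). Arg1, which releases urea, did not pass the test (-0.58 ± 0.28, adjusted p = 0.109). Aldh18a1, which makes proline from glutamate, rose, at 9.74 to 15.7 CPM (median 12.4) in the tumours and 1.75, 1.71 and 1.28 CPM in normal livers (3.02 ± 0.24, adjusted p = 1.03e-05). Gls2, the liver glutaminase, fell by 1.19 ± 0.27, and its call ended when all 15 libraries were fitted together (adjusted p = 0.0585). Among enzymes of amino acid breakdown, Dmgdh fell by 2.7 ± 0.19. Aadat fell by 3.07 ± 0.22. Aass, which starts lysine breakdown, fell by 2.17 ± 0.23. Prodh, which oxidises proline, fell by 3.74 ± 0.35. Gnmt, which uses up S-adenosylmethionine, was at 97.2 to 212 CPM (median 163) in the tumours and 1289, 1236 and 1793 CPM in normal livers (-3.2 ± 0.25, adjusted p = 1.03e-05).

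Of 15 tested genes of gluconeogenesis and glycogen 11 fell (median -1.49). G6pc, glucose-6-phosphatase, was at 37 to 149 CPM (median 39.1) in the tumours and 1013, 2035 and 231 CPM in normal livers, with normal liver 3 lowest in its group and no overlap (-3.96 ± 0.66, adjusted p = 0.00086, and -3.15 without normal liver 2). Fbp1, another enzyme of gluconeogenesis, was at 253 to 414 CPM (median 348) in the tumours and 1056, 949 and 1188 CPM in normal livers (-1.63 ± 0.19, adjusted p = 8.54e-05). Pck2, the mitochondrial form of PEP carboxykinase, went up (2.19 ± 0.31, adjusted p = 0.000287) and Pck1, the cytosolic form, down (-2.18 ± 0.56, adjusted p = 0.009, and adjusted p = 0.0528 with all 15 libraries in 1 fit). In glycolysis 6 of 24 tested genes were higher and 1 lower, and without normal liver 1 or normal liver 3 the number higher was 3. Pfkp, a phosphofructokinase little used by normal hepatocytes, was at 8.82 to 59.5 CPM (median 29.2) in the tumours and 3.01, 3.34 and 2.46 CPM in normal livers (3.48 ± 0.65, adjusted p = 0.00158). Pkm2, the gene of pyruvate kinase M, was at 26.3 to 287 CPM (median 40.7) in the tumours and 11.8, 11.9 and 9.7 CPM in normal livers, with tumour 5 highest (2.83 ± 0.86, adjusted p = 0.0207; without tumour 5, 1.71 with adjusted p = 0.00014); its call ended whichever normal liver was left out (highest adjusted p = 0.0718). Of 21 respiratory chain genes 12 fell (median -0.63), led by Sdha at 189 to 261 CPM (median 221) in the tumours and 734, 752 and 728 CPM in normal livers (-1.74 ± 0.16, adjusted p = 1.98e-05). Atp5b was at 540.1 to 834 CPM (median 697) in the tumours and 1467, 1487 and 1474 CPM in normal livers (-1.11 ± 0.19, adjusted p = 0.000868). Ucp2, an uncoupling protein, rose by 1.67. Fatty acid synthesis showed no single direction, with 7 of 25 genes higher and 5 lower. Fasn was at 318 to 754 CPM (median 628) in the tumours and 233, 699 and 581 CPM in normal livers and was not called. Lpl, a lipase that hepatocytes of adults barely make, was at 135 to 935 CPM (median 446) in the tumours and 30.3, 41.5 and 36.9 CPM in normal livers (3.69 ± 0.59, adjusted p = 0.000634). Pnpla3 was at 17.8 to 72.8 CPM (median 33.2) in the tumours and 0.65, 0.896 and 1.48 CPM in normal livers (5.3 ± 0.55, adjusted p = 4.71e-05). Cholesterol synthesis showed none either, with 4 of 21 genes higher and 5 lower.

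Marker genes of both liver zones fell. Of 20 tested beta-catenin targets and pericentral genes 15 fell (median -1.9), and of 13 periportal genes 8 fell (median -1.41); 4 periportal genes fell when all 15 libraries were fitted together, with Hal and Sds among those whose calls ended (adjusted p = 0.0628 and 0.121). Glul, glutamine synthetase, which marks the last hepatocytes around the central vein, was at 58.5 to 257 CPM (median 84.6) in the tumours and 943, 931 and 1171 CPM in normal livers. No tumour came near the normal livers (-3.11 ± 0.43, adjusted p = 0.000259). Axin2, a direct beta-catenin target, was at 0.955 to 3.58 CPM (median 1.49) in the tumours and 11.4, 11.2 and 13.8 CPM in normal livers (-2.71 ± 0.37, adjusted p = 0.000221). Tbx3 was at 3.03 to 12.2 CPM (median 6.79) in the tumours and 49.6, 38.5 and 49.1 CPM in normal livers (-2.69 ± 0.34, adjusted p = 0.000139). Notum, a secreted Wnt inhibitor, was at 4.05 to 14.2 CPM (median 5.44) in the tumours and 45.7, 40.7 and 44.8 CPM in normal livers (-2.64 ± 0.35, adjusted p = 0.000219). Rgn, a calcium-binding protein, was at 39.9 to 182 CPM (median 142) in the tumours and 1301, 1360.3 and 1647 CPM in normal livers (-3.48 ± 0.41, adjusted p = 9.19e-05). Tumour 6 was the highest of the 6 tumours for 16 of the 20 genes, still below the normal livers for Glul, Axin2, Tbx3, Notum and Rgn. Among periportal genes, Hal, which breaks down histidine, fell by 1.45 ± 0.29. Sds, serine dehydratase, fell by 1.41 ± 0.22, and Cdh1, E-cadherin, was higher at 154 to 243 CPM (median 220.4) in the tumours and 94.7, 109 and 63.1 CPM in normal livers (1.26 ± 0.22, adjusted p = 0.000942).

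**Figure D3:**
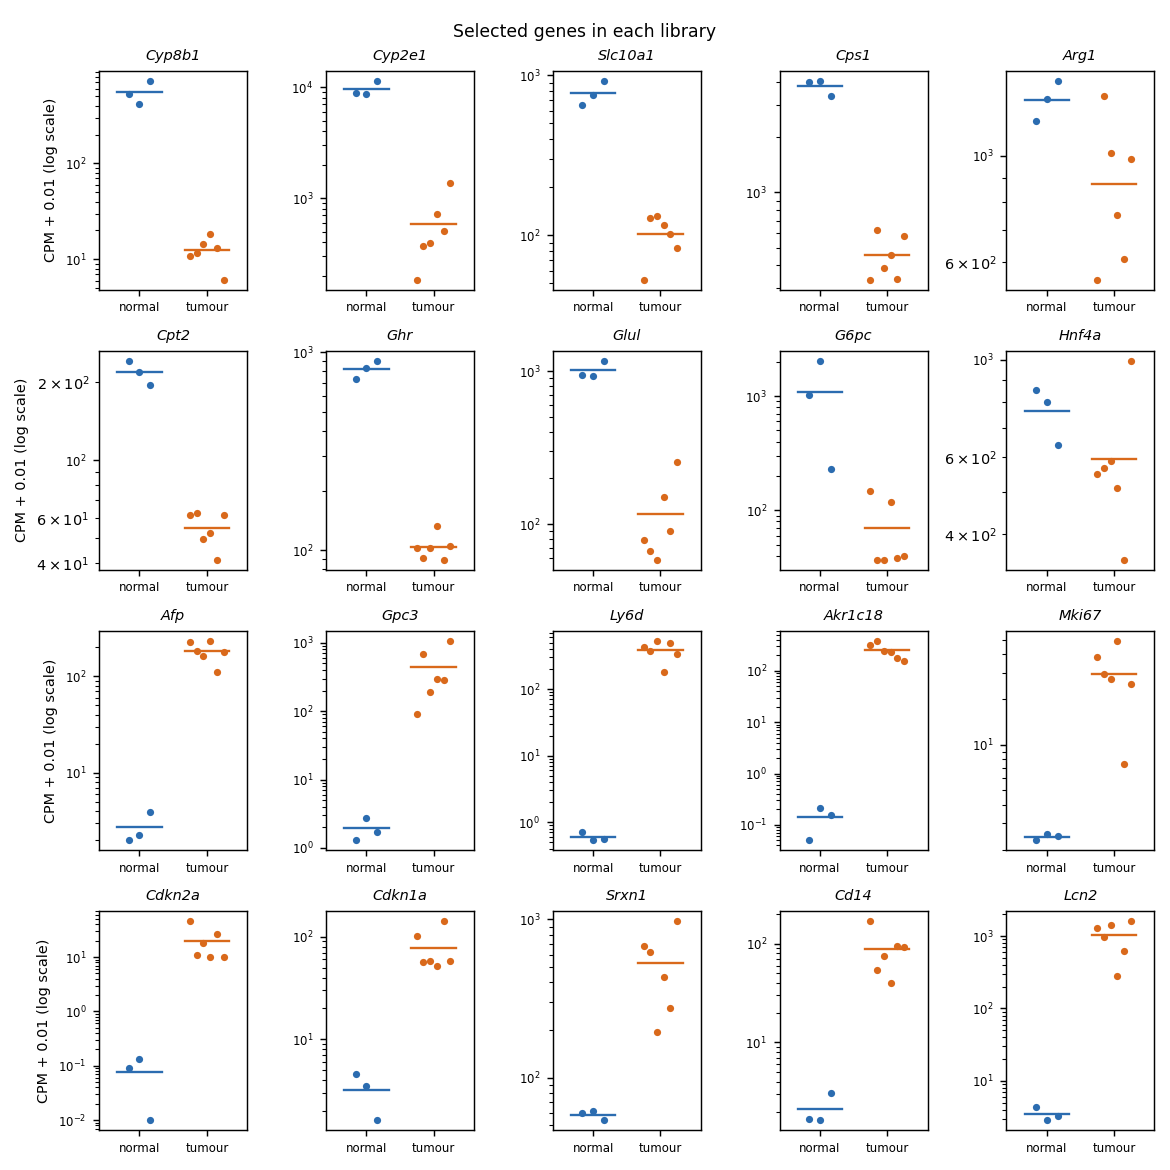
CPM on a log10 axis (CPM + 0.01) of 20 genes in each library, one point per library, orange for the 6 floxed tumours and blue for the 3 normal livers, with the group means as short lines. The 10 genes of adult liver in the upper rows (Cyp8b1 to Hnf4a) lie lower in the tumours without overlap except Arg1 and Hnf4a, and the 10 in the lower rows (Afp to Lcn2) lie higher without overlap; the horizontal positions within a group carry no meaning.

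The factors that set hepatocyte identity moved in both directions. Of 23 tested factors 13 were lower and 5 higher (median -0.8). Cebpa was at 198 to 278 CPM (median 204) in the tumours and 405, 521 and 581 CPM in normal livers (-1.21 ± 0.17, adjusted p = 0.000296). Nr1i3, the CAR receptor of drug metabolism, was at 15 to 41.8 CPM (median 20.2) in the tumours and 166, 90.5 and 116 CPM in normal livers (-2.33 ± 0.31, adjusted p = 0.000206). Nr5a2, a regulator of bile acid genes, was at 21.9 to 44 CPM (median 28.8) in the tumours and 89.1, 70.9 and 65.4 CPM in normal livers (-1.32 ± 0.21, adjusted p = 0.000614). Prox1 fell by 1.23 ± 0.24. Rxra fell by 1.33 ± 0.28. Foxa3 was higher, at 62.7 to 126 CPM (median 99.4) in the tumours and 28.3, 42.1 and 39.7 CPM in normal livers (1.39 ± 0.26, adjusted p = 0.00149), and so were Sox4 and Sox9, factors of bile duct and progenitor cells. Sox4 was at 6.57 to 17.3 CPM (median 9.18) in the tumours and 1.99, 1.63 and 1.28 CPM in normal livers (2.69 ± 0.35, adjusted p = 0.000192). Sox9 was at 9.66 to 61.3 CPM (median 24.9) in the tumours and 9.14, 4.89 and 5.02 CPM in normal livers (2.27 ± 0.58, adjusted p = 0.00925).

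Genes of secreted hepatocyte products moved both ways. Of 21 plasma protein genes 5 were higher and 3 lower, where 24.9% and 23.8% of all tested genes were, and without tumour 5, which had the lowest Alb, the number higher was 8. Trf, transferrin, was at 39178 to 77268 CPM (median 57499.6) in the tumours and 17766, 17074 and 16446 CPM in normal livers, above every normal liver in all tumours (1.75 ± 0.32, adjusted p = 0.0015). Apoa1, the main protein of HDL, was at 13007 to 37356 CPM (median 24631) in the tumours and 6737, 7838 and 9735 CPM in normal livers (1.63 ± 0.36, adjusted p = 0.0043). Complement and clotting genes were lower in 12 of 27 cases and higher in 0 (median -0.65). C8b, of the membrane attack complex, was at 52.9 to 113 CPM (median 67.3) in the tumours and 585, 665 and 502 CPM in normal livers (-2.95 ± 0.25, adjusted p = 1.48e-05). Masp1, which starts the lectin pathway, fell by 2.52 ± 0.29. C9 fell by 2.91 ± 0.36. The fibrinogen chains Fga, Fgb and Fgg were not called, at -0.14, 0.46 and 0.11. Acute phase genes split. Lcn2, an iron-sequestering protein, was at 279 to 1619.9 CPM (median 1137) in the tumours and 4.31, 2.85 and 3.25 CPM in normal livers (8.22 ± 0.69, adjusted p = 1.46e-05). Apcs, serum amyloid P, was at 273 to 1196 CPM (median 596) in the tumours and 86.1, 70.7 and 80.1 CPM in normal livers (3.07 ± 0.48, adjusted p = 0.000586). Crp was lower at 102 to 179 CPM (median 139.8) in the tumours and 601, 463 and 464 CPM in normal livers (-1.86 ± 0.18, adjusted p = 3.16e-05) and Saa1 was not called at 18.7 to 77.1 CPM (median 30.4) in the tumours and 25.8, 28.4 and 32.9 CPM in normal livers. Hamp, hepcidin, the hormone that lowers blood iron, was at 4.45 to 147 CPM (median 60.1) in the tumours and 269.7, 417 and 415 CPM in normal livers (-2.38 ± 0.77, adjusted p = 0.0267, and adjusted p = 0.0546 with no filter), and its call ended without tumour 5, normal liver 2 or normal liver 3 (highest adjusted p = 0.0734).

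Genes of fetal liver and of liver tumours were the list with the highest median, 5.4, with 21 of 24 tested members higher, against 24.9% of all tested genes. In 19 of them every tumour lay above every normal liver. The list was chosen with earlier results of these data known. It holds Akr1c18 and Spink3, which are among the largest rises given below. Its rank and its share of higher genes are thus a description and not a test. Mest and Igf2bp3 were not called, and Dlk1 and Lin28b were not tested. Afp, the fetal serum protein, was at 109.9 to 234 CPM (median 181) in the tumours and 1.99, 2.24 and 3.94 CPM in normal livers (6.08 ± 0.37, adjusted p = 2.43e-06). Gpc3, an oncofetal proteoglycan, was at 91.2 to 1066 CPM (median 294) in the tumours and 1.3, 2.73 and 1.72 CPM in normal livers (7.83 ± 0.99, adjusted p = 0.00016). H19, an imprinted fetal RNA, was at 10.4 to 239 CPM (median 74.3) in the tumours and 0.203, 0.163 and 0.295 CPM in normal livers (8.67 ± 1.2, adjusted p = 0.000276, and 8.08 without tumour 4). H19 spread widely among the tumours, and every tumour still lay above every normal liver. Ly6d, a surface protein, was at 178 to 529 CPM (median 403) in the tumours and 0.691, 0.529 and 0.542 CPM in normal livers (9.36 ± 0.48, adjusted p = 1.09e-06). Scd2, the desaturase of fetal liver, was at 248 to 553 CPM (median 346) in the tumours and 7.27, 8.96 and 6.7 CPM in normal livers (5.61 ± 0.34, adjusted p = 2.54e-06). Golm1, a Golgi protein, was at 64.2 to 177 CPM (median 109.6) in the tumours and 4.43, 4.28 and 2.91 CPM in normal livers (4.93 ± 0.38, adjusted p = 8.63e-06). Lgr5, listed as a tumour marker because of its role in Wnt signalling, was the member that fell (-1.96 ± 0.48, adjusted p = 0.00721).

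The 15 largest rises held genes that normal liver barely makes. Akr1c18, a progesterone-inactivating reductase, was at 159 to 385 CPM (median 236) in the tumours and 0.0406, 0.204 and 0.148 CPM in normal livers (10.87 ± 0.55, adjusted p = 1.09e-06). Csn3, a milk casein, and Cacna1b, a neuronal calcium channel subunit, had no count in the normal livers and 12.3 to 113 CPM (median 27.4) and 14.5 to 45.6 CPM (median 24.2) in the tumours, at least 891-fold and 621-fold higher against 3 counts over the group. Without tumour 1, Csn3 was at least 576-fold higher. Cdh17, the intestinal LI-cadherin, and Cxcl17, a mucosal chemokine, had 1 count each over the normal livers and 11.1 to 70.5 CPM (median 31.8) and 0.745 to 73.4 CPM (median 4.17) in the tumours. Sprr1a, Krt5 and Scel, genes of stratified epithelium, had none in the normal livers and 4.37 to 11.1 CPM (median 8.61), 1.47 to 13.8 CPM (median 6.05) and 1.89 to 6.31 CPM (median 5.92) in the tumours (at least 202-fold, 153-fold and 119-fold higher). Gldn, a myelin adhesion protein, was at 57.9 to 143 CPM (median 110.03) in the tumours and 0, 0.0407 and 0.197 CPM in normal livers (10.41 ± 0.58, adjusted p = 1.53e-06, and 9.8 without normal liver 1 and 11.99 without normal liver 3). Spink3, a trypsin inhibitor, was at 19 to 157 CPM (median 70.3) in the tumours and 0, 0.122 and 0.0985 CPM in normal livers (10.07 ± 1.13, adjusted p = 7.75e-05, and 9.47 without normal liver 1 and 10.68 without normal liver 2). The rest of the 15 were Slc7a11, H2-Ea-ps and Cyp2b13, given above, Sult2a2, and Gm7092 (10.64 ± 0.78, adjusted p = 6.32e-06, and 12.49 without normal liver 3). Gm7092 had 1 count over the normal livers, in normal liver 3, so its value without that library is not a measured fold. Sult2a2, a sulfotransferase, ranged from 0.118 to 41.7 CPM among the tumours. It lost its call whichever normal liver was left out (highest adjusted p = 0.0603). C57Bl/6 mice do not express H2-Ea-ps and the strain of the tumour mice is not given, so tumour and strain cannot be told apart for it.

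Mitosis genes rose without exception among those tested. All 25 tested members of the G2/M list were called higher (median 3.15), and in 22 of them every tumour lay above every normal liver. Mki67, the proliferation antigen Ki-67, was at 7.49 to 49 CPM (median 28.6) in the tumours and 2.32, 2.53 and 2.46 CPM in normal livers (3.6 ± 0.52, adjusted p = 0.000341). Top2a, which untangles chromosomes, was at 4.94 to 19.9 CPM (median 9.76) in the tumours and 1.5, 1.96 and 1.18 CPM in normal livers (2.81 ± 0.43, adjusted p = 0.000473). Cdk1, the mitotic kinase, was at 3.33 to 14.2 CPM (median 11) in the tumours and 1.83, 1.75 and 1.18 CPM in normal livers (2.66 ± 0.44, adjusted p = 0.000788). Ube2c, of the anaphase-promoting machinery, was at 1.02 to 9.04 CPM (median 6.3) in the tumours and 0.203, 0.0815 and 0.443 CPM in normal livers (4.6 ± 0.75, adjusted p = 0.000707, and 5.29 without normal liver 3). Foxm1, the factor that switches on mitosis genes, was at 2.59 to 6.36 CPM (median 4.27) in the tumours and 0.569, 0.529 and 0.542 CPM in normal livers (2.99 ± 0.36, adjusted p = 0.000114). Most levels were low. Tumour 5 was the lowest of the 6 tumours for all 25 genes and tumour 4 the highest for 21.

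Promoters of mitosis genes are known for the CHR element, TTTGAA, which the MuvB complex binds together with FOXM1 or with the repressor DREAM. The windows below are shown because these genes rose together and hold that element; they are from RefSeq (GRCm38.p6), 5′ to 3′, cover the 120 bases before the transcription start, and have TTTGAA or its reverse complement TTCAAA in capitals. They lie at chr7:135716380-135716499 (Mki67, minus strand), chr11:99024190-99024309 (Top2a, minus strand), chr2:164769809-164769928 (Ube2c, plus strand) and chr10:69352913-69353032 (Cdk1, minus strand).
Mki67: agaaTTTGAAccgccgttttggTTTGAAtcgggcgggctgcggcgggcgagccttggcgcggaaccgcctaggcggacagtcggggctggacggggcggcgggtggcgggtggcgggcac
Top2a: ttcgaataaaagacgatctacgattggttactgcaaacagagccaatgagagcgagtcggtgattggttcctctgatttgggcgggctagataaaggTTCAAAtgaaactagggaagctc
Ube2c: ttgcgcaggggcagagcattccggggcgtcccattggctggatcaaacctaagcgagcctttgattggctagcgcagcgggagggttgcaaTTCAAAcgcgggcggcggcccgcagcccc
Cdk1: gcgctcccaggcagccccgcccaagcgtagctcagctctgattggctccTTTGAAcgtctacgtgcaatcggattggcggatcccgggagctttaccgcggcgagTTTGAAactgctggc
Over the 300 bases around the start, on both strands, TTTGAA was found in 14 of the 20 G2/M genes that have a window (70%), against 12.1% of the 9808 tested genes with one, 13.3% of the higher genes, 12% of the lower genes and 18.1% of all 27025 windows. CCAAT, the NF-Y motif, was found in 17 of the 20 (85%), against 38.7% of the tested genes, 35.5% of the higher genes and 40.9% of the lower genes. CCAAT was not particular to this list. It was also found in 12 of 14 genes of cholesterol synthesis and uptake and in 9 of 12 genes of gluconeogenesis and glycogen. A match is a description of these letters and not a measured binding site.

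The replication genes moved less. Of 25 tested G1/S genes 11 were higher and 2 lower (median 0.66), and without normal liver 3 the number higher was 7. Ccnd1, cyclin D1, was at 63.9 to 167 CPM (median 92.7) in the tumours and 21.9, 25.4 and 25.5 CPM in normal livers (2.03 ± 0.31, adjusted p = 0.000448). Ccne1, cyclin E1, was at 8.74 to 23.3 CPM (median 15.9) in the tumours and 0.528, 0.407 and 0.788 CPM in normal livers (4.88 ± 0.41, adjusted p = 1.39e-05). Pcna was not called, at 9.55 to 14.4 CPM (median 11.1) in the tumours and 8.69, 9.12 and 10.1 CPM in normal livers. E2f8, a repressor of E2F targets that is tied to polyploidy of hepatocytes, fell while the mitosis genes rose, to between 0.994 and 3.33 CPM from 19.9, 46.7 and 17 CPM (-3.66 ± 0.39, adjusted p = 5.67e-05, and -3.07 without normal liver 2).

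Several brakes on the cell cycle rose at the same time. Of 20 tested p53 targets and cell cycle inhibitors 14 were higher and 1, Gdf15, lower (median 1.81). Cdkn2a, the locus of p16INK4a and p19ARF, was at 9.82 to 46.1 CPM (median 14.5) in the tumours and 0.0812, 0.122 and 0 CPM in normal livers (8.03 ± 0.9, adjusted p = 7.65e-05, and 8.65 without normal liver 2). Its neighbour Cdkn2b, p15INK4b, was at 29.8 to 53.4 CPM (median 39.3) in the tumours and 0.162, 0.326 and 0.246 CPM in normal livers (7.32 ± 0.32, adjusted p = 5.06e-07). Cdkn1a, p21, was at 51.3 to 142 CPM (median 57.8) in the tumours and 4.55, 3.5 and 1.62 CPM in normal livers (4.59 ± 0.49, adjusted p = 5.57e-05). Phlda3, a p53 target that inhibits AKT, was at 19.4 to 67 CPM (median 29.2) in the tumours and 0.731, 0.57 and 0.936 CPM in normal livers (5.48 ± 0.48, adjusted p = 1.74e-05). All 4 were higher in every tumour than in every normal liver. The p53 targets Bax and Zmat3 rose by 1.84 and 1.81, and Tnfrsf10b, a TRAIL receptor, by 4.83 (5.43 without normal liver 3). Bbc3, the p53 target PUMA, was at 6.54 to 17.3 CPM (median 9.85) in the tumours and 10.9, 8.88 and 13.8 CPM in normal livers and was not called.

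Signalling genes rose in part, and several of their lists also held members that fell. Of 17 tested genes of ERK output and feedback 7 were higher and 2, Phlda1 and Dusp1, lower (median 0.84). Etv4 was at 2.53 to 13 CPM (median 4.17) in the tumours and 0.0812, 0.244 and 0.246 CPM in normal livers (4.86 ± 0.75, adjusted p = 0.000509). Dusp5, a nuclear ERK phosphatase, was at 3.83 to 15.7 CPM (median 10.4) in the tumours and 0.284, 0.489 and 0.394 CPM in normal livers (4.59 ± 0.53, adjusted p = 8.53e-05). Spry2, a feedback inhibitor, was at 2.83 to 13.9 CPM (median 7.08) in the tumours and 1.14, 1.14 and 1.08 CPM in normal livers (2.83 ± 0.51, adjusted p = 0.00124). Dusp6 was not called at 105 to 188 CPM (median 127) in the tumours and 75.9, 154 and 48.8 CPM in normal livers. Growth factor receptors and ligands were higher in 8 of 25 tested cases and lower in 7. Among ligands of the EGF receptor Areg, Ereg, Hbegf and Btc were called higher, and Tgfa and Egf were not called. Areg went from at most 0.04 CPM to 1.35 to 16.1 CPM (median 5.26) (7.53 ± 1.2, adjusted p = 0.000632) and Hbegf from 0.731, 0.937 and 0.689 CPM to 7.61 to 25.6 CPM (median 11) (4.02 ± 0.46, adjusted p = 8.17e-05). The receptor genes Egfr, Erbb3 and Met fell, with log2 fold changes of -1.66 ± 0.27, -2.12 ± 0.34 and -1.23 ± 0.16. Of 15 tested YAP-TEAD targets and partners 8 were higher, led by Tead4 (4.52 ± 0.44, adjusted p = 2.99e-05, and 5.34 without normal liver 1), Ankrd1 (3.1 ± 0.59, adjusted p = 0.00177, and adjusted p = 0.16 with all 15 libraries in 1 fit) and Ctgf (3.21 ± 0.57, adjusted p = 0.00124). Cyr61 and Yap1 were not called, at 0.05 and -0.25. In the TGF-beta family 12 of 25 tested members were higher and 6 lower. Inhbb, an activin subunit, was at 12.3 to 104 CPM (median 34.2) in the tumours and 1.79, 1.34 and 2.41 CPM in normal livers (4.76 ± 0.82, adjusted p = 0.00105). Tgfb2 was at 2.61 to 13.7 CPM (median 9.45) in the tumours and 1.06, 1.06 and 1.03 CPM in normal livers (3.11 ± 0.49, adjusted p = 0.000597). Id1, a target of BMP signalling, was at 29.5 to 125 CPM (median 38.5) in the tumours and 2.76, 3.83 and 8.32 CPM in normal livers (3.43 ± 0.6, adjusted p = 0.00115). The hepatocyte activin subunits Inhbc and Inhbe fell (-1.92 ± 0.25 and -1.66 ± 0.21). Of 20 genes of the unfolded protein and integrated stress responses 11 rose and 0 fell (median 0.99), with Asns at 32.9 to 101 CPM (median 65.7) in the tumours and 2.92, 3.67 and 12.9 CPM in normal livers (3.31 ± 0.54, adjusted p = 0.000741, and 4.26 without normal liver 3). Trib3 was at 55.7 to 188 CPM (median 126) in the tumours and 10.4, 7.98 and 29.4 CPM in normal livers (3.04 ± 0.53, adjusted p = 0.00109, and 3.81 without normal liver 3). Creld2 was at 83.4 to 156 CPM (median 118) in the tumours and 30.0, 28.6 and 44.3 CPM in normal livers (1.78 ± 0.22, adjusted p = 0.000132). The chaperone Hspa5 was at 1125 to 2709.6 CPM (median 2086) in the tumours and 795, 872 and 603 CPM in normal livers (1.42 ± 0.28, adjusted p = 0.00223).

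Of 15 tested genes of the Notch pathway 9 were higher and 1 lower (median 1.32), and without normal liver 1, 2 or 3 the number higher was 3, 3 and 5. The ligand gene Jag1 was at 11.3 to 25.3 CPM (median 17.1) in the tumours and 7.6, 7.94 and 6.01 CPM in normal livers (1.34 ± 0.31, adjusted p = 0.00514), with its call lost when all 15 libraries were fitted together (adjusted p = 0.169). The target gene Hes1 rose, at 17.4 to 86 CPM (median 35.9) in the tumours and 11.3, 14.1 and 13.2 CPM in normal livers (1.89 ± 0.5, adjusted p = 0.0108), and so did the target gene Hey1, at 1.47 to 8.39 CPM (median 1.74) in the tumours and 0.244, 0.692 and 0.246 CPM in normal livers (2.87 ± 0.76, adjusted p = 0.0103, and 2.18 without tumour 5 and 3.55 without normal liver 2). Hes6 fell by 1.61 ± 0.23. The receptors Notch1 and Notch2 were not called, at -0.02 and 0.04. Notch4, a receptor of endothelial cells, was at 12, 11.1, 21.2, 14.7, 117 and 17.1 CPM in tumours 1 to 6 and 4.55, 4.28 and 3.79 CPM in normal livers 1 to 3, with tumour 5 far above the rest (2.95 ± 0.87, adjusted p = 0.0178; without tumour 5, 1.86 with adjusted p = 0.00019); its call ended whichever normal liver was left out (highest adjusted p = 0.0629).

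Chemokines rose broadly. Of 30 tested chemokines and receptors 24 were higher and 1 lower (median 2.31), against 24.9% and 23.8% of all tested genes. Cxcl1, which draws neutrophils, was at 69.5 to 117 CPM (median 88) in the tumours and 25.1, 5.54 and 15.7 CPM in normal livers (2.55 ± 0.41, adjusted p = 0.00069). Ccl5 was at 2.78 to 23.8 CPM (median 4.95) in the tumours and 0.934, 1.06 and 1.13 CPM in normal livers (3.05 ± 0.79, adjusted p = 0.00982, and 2.41 without tumour 4). Cx3cr1, a receptor of monocytes, was at 6.97 to 10.5 CPM (median 8.88) in the tumours and 0.853, 1.14 and 1.13 CPM in normal livers (3.08 ± 0.23, adjusted p = 7.09e-06). Cxcl12, made by stromal and endothelial cells, was the member that fell, at 44.9 to 138 CPM (median 87.2) in the tumours and 684, 365 and 451 CPM in normal livers (-2.55 ± 0.34, adjusted p = 0.000192). Among cytokines and their receptors, Lif, of the IL-6 family, was at 6.57 to 14.9 CPM (median 10.1) in the tumours and 0.0812, 0.122 and 0.0492 CPM in normal livers (6.81 ± 0.49, adjusted p = 5.73e-06). Osmr, the oncostatin M receptor, was at 15.6 to 40.4 CPM (median 25.8) in the tumours and 3.53, 3.1 and 4.04 CPM in normal livers (2.9 ± 0.31, adjusted p = 5.88e-05). Tnfrsf12a, the TWEAK receptor, was at 91.7 to 161 CPM (median 111) in the tumours and 4.75, 4.93 and 4.58 CPM in normal livers (4.63 ± 0.23, adjusted p = 1.09e-06). Cd14 was at 40.4 to 169 CPM (median 83.4) in the tumours and 1.67, 1.63 and 3.1 CPM in normal livers (5.36 ± 0.53, adjusted p = 3.52e-05). Il1rn, the IL-1 receptor antagonist, was at 49.6 to 161 CPM (median 87.4) in the tumours and 2.97, 1.26 and 4.23 CPM in normal livers (5.12 ± 0.5, adjusted p = 3.15e-05). The receptor genes Lifr and Il6st fell (-1.73 ± 0.27 and -0.91 ± 0.17), and Il6 itself was at most 0.196 CPM in any library.

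Genes of antigen presentation rose and most interferon-stimulated genes did not pass. Of 20 tested MHC genes 15 were higher (median 1.14). Cd74, the class II invariant chain, was at 139 to 361 CPM (median 233) in the tumours and 68.7, 52.2 and 30.0 CPM in normal livers (2.26 ± 0.36, adjusted p = 0.000675). H2-Eb1 was at 42.6 to 140.1 CPM (median 87.6) in the tumours and 22.1, 18.1 and 13.6 CPM in normal livers (2.3 ± 0.36, adjusted p = 0.000546). H2-D1 was at 651 to 932 CPM (median 759) in the tumours and 349.6, 324 and 387 CPM in normal livers (1.12 ± 0.18, adjusted p = 0.000694); H2 genes are close copies and differ between strains, so their single values are uncertain. Of 25 tested interferon-stimulated genes 7 were higher and 0 lower; without normal liver 1 or normal liver 2 the number higher was 4, and without tumour 5 it was 11. Oas1a was at 10.5 to 23.6 CPM (median 21.2) in the tumours and 2.72, 2.4 and 2.76 CPM in normal livers (2.85 ± 0.28, adjusted p = 3e-05), and Irf7 was not called at 33 to 115 CPM (median 57.6) in the tumours and 46.7, 43.1 and 44.8 CPM in normal livers.

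Macrophage markers rose in part. Of 22 tested markers 11 were higher and 1 lower (median 1.08). The summed level of the list was 1058 to 3398 CPM in the tumours and 479.8 to 629 CPM in the normal livers. Spp1 alone made 1272 of 2069, 1535 of 2376 and 1685 of 3398 CPM in tumours 3, 4 and 5. In tumour 1 it made 42 of 1058 CPM. The sum is thus not a measure of macrophage number. Clec4f, Timd4 and Vsig4, known from resident Kupffer cells, are among the members that did not pass. Clec4f was at 24.5 to 78.9 CPM (median 44.5) in the tumours and 103, 96.3 and 55.4 CPM in normal livers. Timd4 was at 1.04 to 7.75 CPM (median 3.33) in the tumours and 7.8, 5.78 and 7.68 CPM in normal livers. Vsig4 was at 7.83 to 31.4 CPM (median 18.5) in the tumours and 23.4, 23 and 12.7 CPM in normal livers. Cd9, Mmp12, Trem2 and Spp1 are among the members called higher. Cd9 was at 97.6 to 225 CPM (median 163) in the tumours and 23.4, 20.0 and 20.9 CPM in normal livers (2.92 ± 0.27, adjusted p = 2.22e-05). Mmp12, an elastase, was at 6.04 to 216 CPM (median 12.9) in the tumours and 0.284, 0.57 and 0.345 CPM in normal livers (6.95 ± 1.62, adjusted p = 0.00567, and 5.33 without tumour 5). Trem2 was at 1.31 to 23.6 CPM (median 3.99) in the tumours and 0.487, 0.326 and 0.295 CPM in normal livers (4.17 ± 1.03, adjusted p = 0.00757, and 3.14 without tumour 5). Spp1, osteopontin, was at 42, 485, 1272, 1535, 1685 and 816 CPM in tumours 1 to 6 and 56.1, 57.7 and 69.8 CPM in normal livers 1 to 3; tumour 1 lay below every normal liver and the other 5 far above them (4.0 ± 0.95, adjusted p = 0.00607). Neutrophil markers were few and low. Of 12 found in the data 7 had enough counts to be tested, and 6 of these were higher (3 without normal liver 3). Genes this low in normal liver can pass the filter through the tumours alone, so that share is a description. In 3 of the 7 every tumour lay above every normal liver. The summed level was 6.44 to 44.1 CPM in the tumours and 4.52 to 6.87 CPM in the normal livers, with tumour 6 within the range of the normal livers. S100a9 was at 0.835 to 13.8 CPM (median 8.34) in the tumours and 1.91, 1.06 and 1.03 CPM in normal livers, with tumour 6 below the normal livers. Markers of T, NK and B cells were higher in 7 of 19 tested cases, and, whichever normal liver was left out, in 2. Their summed level was 48 to 149.9 CPM in the tumours and 23.6 to 24.1 CPM in the normal livers.

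HMGB1 released from cells acts on the receptors RAGE, TLR2 and TLR4, and joins CXCL12 in binding CXCR4. In the list of HMGB genes and receptors 7 of 13 tested members were higher and 0 lower (median 0.71), and without normal liver 1 or normal liver 3 the number higher was 4 and 3. Ager, the gene of RAGE, was at 0.599 to 2.27 CPM (median 1.27) in the tumours and 0.284, 0.0815 and 0.443 CPM in normal livers, low in all libraries and higher in every tumour (2.24 ± 0.59, adjusted p = 0.00982). Tlr2 was at 4.74 to 16.1 CPM (median 7.8) in the tumours and 3.37, 3.67 and 2.22 CPM in normal livers (1.46 ± 0.4, adjusted p = 0.0126; without normal liver 3, 1.25 with adjusted p = 0.0612). Tlr4 was at 1.99 to 4.9 CPM (median 2.47) in the tumours and 1.62, 1.38 and 1.33 CPM in normal livers (0.97 ± 0.33, adjusted p = 0.0346, and adjusted p = 0.0728 on library totals), and the call of Tlr4 ended whichever normal liver was left out (highest adjusted p = 0.109). Cxcr4 was at 4.57, 3.15, 3.1, 6.49, 75.5 and 4.73 CPM in tumours 1 to 6 and 0.162, 0.611 and 0.394 CPM in normal livers 1 to 3, with tumour 5 far above the other tumours (5.39 ± 1.51, adjusted p = 0.0139; without tumour 5, 3.49 with adjusted p = 0.000207); its call ended without normal liver 1 or normal liver 3 (highest adjusted p = 0.06). Cd24a, a surface protein that binds HMGB1, was at 10.6 to 22.1 CPM (median 15.2) in the tumours and 2.15, 1.96 and 2.91 CPM in normal livers (2.71 ± 0.3, adjusted p = 6.18e-05). The relatives Hmgb2 and Hmgb3 were not called, at 0.43 and -0.2, and neither was Myd88, the adaptor of the toll-like receptors, at -0.19.

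Stroma and vessels differed by tumour. The fibrillar collagen genes did not pass: Col1a1 was at 20.3, 21.4, 19.6, 44.8, 427 and 26.1 CPM in tumours 1 to 6 and 11.1, 14.5 and 16.7 CPM in normal livers 1 to 3 (2.74 ± 1.18, adjusted p = 0.0768). Tumour 5 was far above the others, and those 5 also lay above every normal liver (without tumour 5, 0.92 with adjusted p = 0.0276). Of 24 tested collagen and basement membrane genes 5 were higher and 4 lower, and without tumour 5 the numbers were 8 and 7; without normal liver 1, 2 or 3 the number higher was 2, 2 and 1. Col4a3, of the basement membrane, was raised in all tumours, at 21.9 to 95 CPM (median 45.9) in the tumours and 0.528, 1.22 and 0.936 CPM in normal livers (5.84 ± 0.54, adjusted p = 2.44e-05). Col18a1, the source of endostatin, was lower, at 371 to 712 CPM (median 619) in the tumours and 1306, 1200.4 and 1263 CPM in normal livers (-1.06 ± 0.21, adjusted p = 0.00197). Acta2, smooth muscle actin, which marks activated stellate cells, was at 12.8 to 43 CPM (median 21.6) in the tumours and 2.97, 2.48 and 1.38 CPM in normal livers (3.47 ± 0.45, adjusted p = 0.000161). Dcn, decorin, was not called at 40.3 to 191 CPM (median 101) in the tumours and 135, 166 and 125 CPM in normal livers. Stellate cell and myofibroblast markers were higher in 4 of 21 tested cases and lower in 1, and without tumour 5 the number lower was 5. Endothelial genes showed a mixed pattern, with 9 of 22 higher and 1 lower, and without normal liver 3 the number higher was 5. The sinusoidal markers Stab2, Clec4g and Oit3 were not called, at 0.02, -0.16 and -0.02. Esm1, a tip cell gene, was above every normal liver in all tumours, at 23.1 to 231 CPM (median 26.4) in the tumours and 0.853, 1.34 and 1.08 CPM in normal livers (5.79 ± 1.12, adjusted p = 0.002, and 4.56 without tumour 5). Tumour 5 was the highest.

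**Figure D4:**
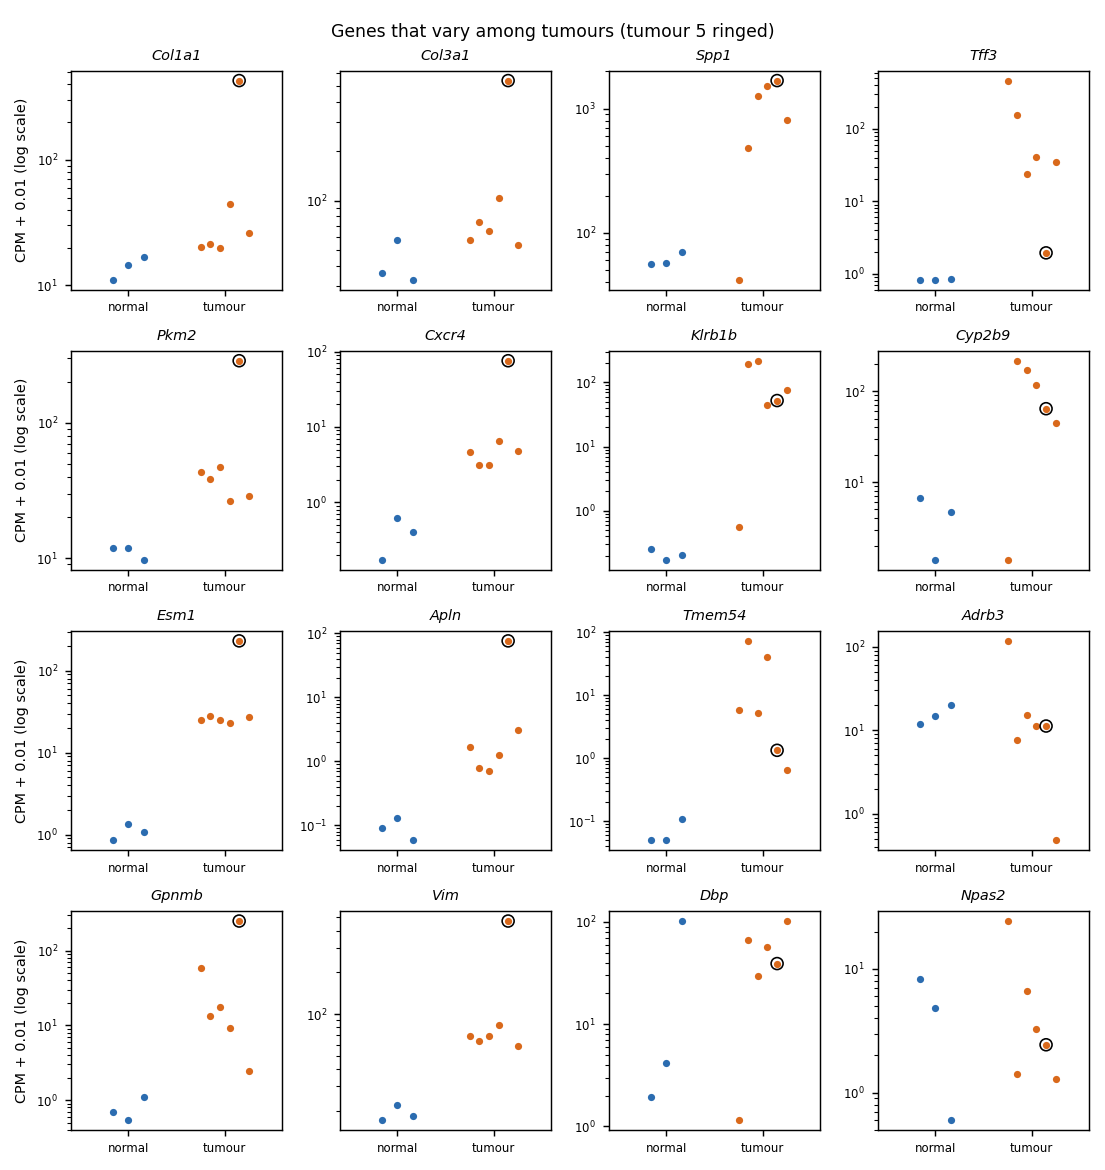
CPM on a log10 axis (CPM + 0.01) of 16 genes in each library, with the 6 floxed tumours as orange points, tumour 5 ringed in black, and the 3 normal livers as blue points. Tumour 5 lies highest for the 8 genes in the 2 columns on the left, from Col1a1 to Vim, and tumour 1 is the lowest or the highest tumour for 7 of the 8 genes in the columns on the right, from Spp1 to Npas2.

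Tumour 5 was the highest of the tumours for 19 of 24 collagen and basement membrane genes, 18 of 21 stellate cell and myofibroblast markers and 18 of 20 matrix proteases and inhibitors, and the lowest for 17 of 21 plasma protein genes and 25 of 35 genes of amino acid breakdown. It was also highest for the following 3 genes. Apln, apelin, a ligand of sprouting vessels, was at 1.69, 0.787, 0.708, 1.25, 76.5 and 3.06 CPM in tumours 1 to 6 and 0.0812, 0.122 and 0.0492 CPM in normal livers 1 to 3 (7.28 ± 2.41, adjusted p = 0.0291, and adjusted p = 0.0613 with no filter; without tumour 5, 4.06 with adjusted p = 0.000961), and its call ended whichever normal liver was left out (highest adjusted p = 0.0941). Gpnmb, a glycoprotein of macrophages, was at 58, 13.1, 17.7, 9.13, 249.4 and 2.47 CPM in tumours 1 to 6 and 0.691, 0.529 and 1.08 CPM in normal livers 1 to 3 (6.27 ± 1.68, adjusted p = 0.0113; without tumour 5, 4.7 with adjusted p = 0.00554). Vim, vimentin, an intermediate filament of mesenchymal cells, was at 68.9, 63.4, 69.2, 83, 471 and 58.8 CPM in tumours 1 to 6 and 17.1, 22.1 and 18.3 CPM in normal livers 1 to 3 (2.84 ± 0.79, adjusted p = 0.0138; without tumour 5, 1.85 with adjusted p = 1.98e-05), and its call ended without normal liver 1 or normal liver 3 (highest adjusted p = 0.0571). The summed level of the stellate cell and myofibroblast markers was 966 CPM in tumour 5 and at most 418 CPM in the other tumours, and that of the endothelial markers 1206 CPM against at most 672 CPM.

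Of 27 tested genes of epithelial junctions and the cytoskeleton 16 were higher and 4 lower. Krt18 and Krt8 are the keratins of hepatocytes. Krt18 was at 811 to 1173 CPM (median 957) in the tumours and 203, 213 and 273 CPM in normal livers (2.08 ± 0.21, adjusted p = 4.5e-05). Krt8 was at 356 to 579.8 CPM (median 491) in the tumours and 129, 165 and 177 CPM in normal livers (1.57 ± 0.21, adjusted p = 0.000232). Krt20, an intestinal keratin, had 1 count over the normal livers and 2.16 to 31.6 CPM (median 6.77) in the tumours. Anxa2, a membrane-binding protein, was at 209.99 to 538 CPM (median 235) in the tumours and 13.2, 13.5 and 13 CPM in normal livers (4.44 ± 0.38, adjusted p = 1.63e-05). S100a11 was at 33.4 to 63.2 CPM (median 41.1) in the tumours and 2.11, 2.69 and 3 CPM in normal livers (4.14 ± 0.3, adjusted p = 6.18e-06). Cdh2, N-cadherin, which hepatocytes carry beside E-cadherin, was at 21.2 to 29.3 CPM (median 24.5) in the tumours and 107, 97.8 and 87.4 CPM in normal livers (-1.98 ± 0.13, adjusted p = 2.87e-06). The gap junction gene Gjb2 was at 102 to 200.4 CPM (median 192) in the tumours and 446, 414 and 472 CPM in normal livers (-1.38 ± 0.22, adjusted p = 0.000579). Of 16 tested cholangiocyte and progenitor markers 9 were higher. Prom1 was at 17.4 to 85.3 CPM (median 54.9) in the tumours and 1.67, 1.59 and 1.08 CPM in normal livers (5.12 ± 0.54, adjusted p = 5.44e-05). Cd44 was at 18.8 to 53.1 CPM (median 26.2) in the tumours and 8.12, 6.84 and 7.48 CPM in normal livers (1.98 ± 0.32, adjusted p = 0.000632). The bile duct keratin Krt19 was not called, at 0.398 to 4.66 CPM (median 1.6) in the tumours and 1.46, 1.91 and 1.43 CPM in normal livers.

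Some genes varied widely among the 6 tumours. The 12 with the largest SD of log2 CPM among tumours (mean of at least 10 CPM) included Tff3, a trefoil peptide, at 465, 155, 23.6, 41.5, 1.92 and 34.8 CPM in tumours 1 to 6 and 0.812, 0.815 and 0.837 CPM in normal livers 1 to 3. Another was Klrb1b, an NK cell receptor gene, at 0.547, 191, 217, 44.8, 52 and 74.7 CPM in tumours 1 to 6 and 0.244, 0.163 and 0.197 CPM in normal livers 1 to 3. Prom2 and Tmem54 ranged from 0.298 to 82.5 CPM and from 0.636 to 73.4 CPM among the tumours, and both were called higher than in normal liver. Prom2 differed by 8.19 ± 2.05, adjusted p = 0.00805, and 7.06 without tumour 6 and adjusted p = 0.0529 under voom. Tmem54 differed by 8.4 ± 2.19, adjusted p = 0.00997, and 7.39 without tumour 2 and adjusted p = 0.0785 under voom. Slc15a2, a peptide transporter, Adrb3, a beta-adrenergic receptor, and Camk2b were not called, with tumours between 0.239 and 65.4 CPM, 0.477 and 118 CPM, and 0.159 and 22.3 CPM. Dbp, an output gene of the circadian clock, was at 1.14, 66.7, 29.8, 56.5, 39.1 and 102 CPM in tumours 1 to 6 and 1.95, 4.15 and 102 CPM in normal livers 1 to 3. Tumour 1 was as low as normal livers 1 and 2, and normal liver 3 was as high as the highest of the other tumours. Npas2, which peaks when Dbp is low, was at 24.3, 1.4, 6.64, 3.29, 2.43 and 1.27 CPM in tumours 1 to 6 and 8.25, 4.85 and 0.591 CPM in normal livers 1 to 3, with tumour 1 again apart from the other tumours. Of 18 tested clock genes 1 was higher and 3 lower; without tumour 1 the number higher was 2, without normal liver 3 it was 3, and without tumour 6 the number lower was 5. The hour at which each liver was taken is not given in the labels, and its part in these values was not tested. Early response genes also differed among the normal livers: Nr4a1 was at 56.9, 63.7 and 2.46 CPM there and Fos at 56.1, 28.3 and 1.87 CPM, with normal liver 3 lowest in both.

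**Figure D5:**
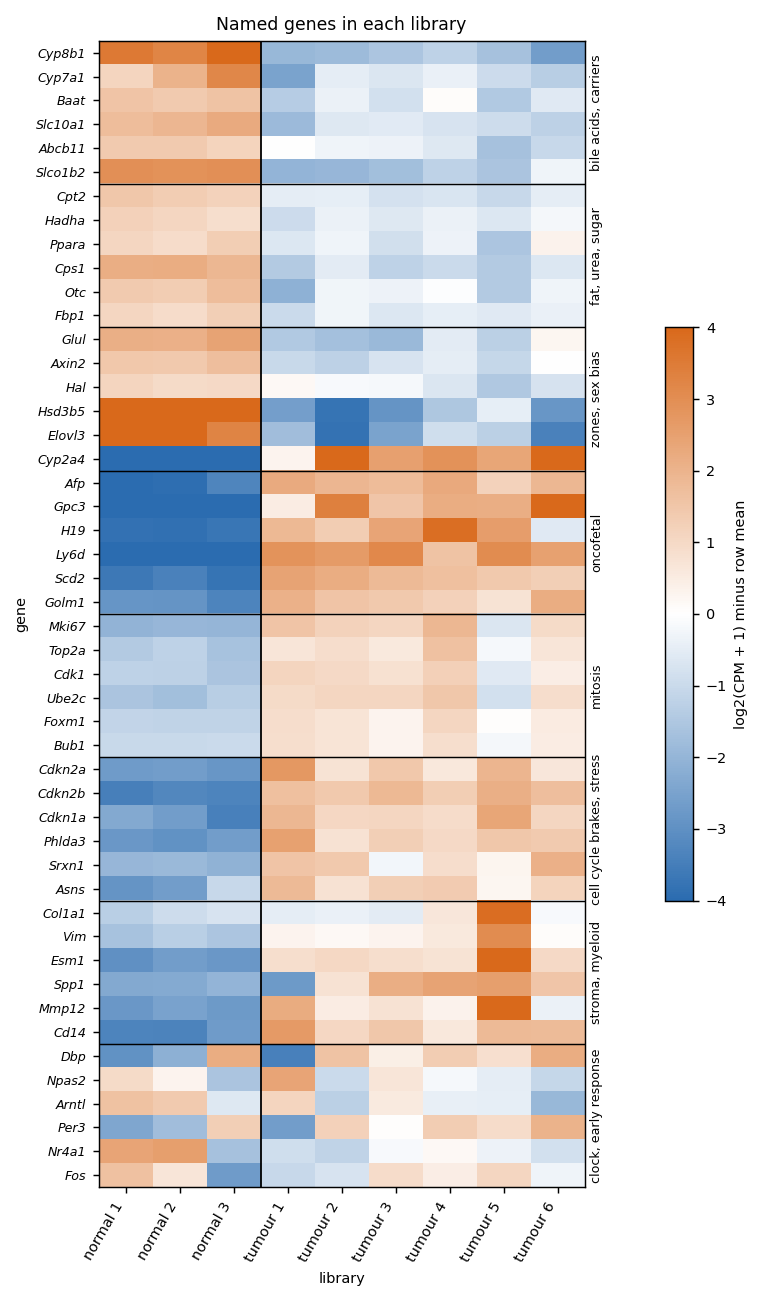
Log2(CPM + 1) of 48 named genes (rows, 6 for each of 8 gene groups) in the 9 libraries (columns), each row centred on its mean over the 9 libraries; orange is above the mean and blue below, with the scale cut at 4 either way. The 3 normal livers lie on the other side of the row mean from most tumours in the metabolic and mitotic groups, and in the last group, clock and early response genes, both the tumours and the normal livers are split.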

How the data were processed

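The values deposited by the authors are read counts for each gene symbol in each of 15 libraries of RNA from liver tumours or liver, without normalization or pooling. Per the labels' protocols, RNA was purified on columns with DNase and made into poly-A selected TruSeq libraries. Per the submitters' processing notes the authors used bcl2fastq 1.8.4, Bowtie2 2.2.4, TopHat2 2.1.0, HTSeq 0.6.1 and build mm9. For the annotation, the strand setting and reads that match several genes, the sources used here give no detail, so values of near-identical or overlapping genes are uncertain. Hmgcs1 and the globin genes are listed at 0 in every library.

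Groups came from the labels. The 6 tumours were tested against the 3 normal livers with edgeR 4.0.16 in R 4.3.3 (limma 3.58.1): filterByExpr, TMM factors, a robust quasi-likelihood test and Benjamini-Hochberg adjustment over the 13784 genes tested, called at an adjusted p under 0.05. Hmgb1 was tested by an exact permutation test on log2(CPM + 1). CPM values use TMM factors over all 15 libraries, and fold bounds use 3 counts over the group, which cover counting error only. No pair of libraries agreed within sampling noise (lowest chi-square per degree of freedom 26.3). The script was tested on simulated data.

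The 56 gene lists (1158 entries, 4 not found in the table) and the comparison itself were chosen with earlier results of these data known, so lists are described by counts and medians beside those of all tested genes. Named genes are Hmgb1, the 15 largest rises and falls among called genes with a mean log2 CPM of at least 1, the members of each list with the smallest p in each direction or a known role, and the 12 genes most variable among tumours (mean of at least 10 CPM). Some of the genes that qualify are not reported here. Promoter windows are from RefSeq (GRCm38.p6), searched for 8 motifs of which 3 are reported. Alternatives were RLE, upper-quartile or no scaling factors, other filters, DESeq2 1.42.0, voom with sample weights, all 15 libraries in 1 fit, no robust estimation, the replicate number as a block and leaving out each library.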

Additional observations from a re-analysis of the deposited data

Results flagged for a closer look

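Of 290 named genes, 34 had 1 tumour set apart from the other 5. The gap between that tumour and its nearest neighbour, divided by the range of the 6 tumours on the log2(CPM + 1) scale, exceeded the critical value of Dixon's test at 95% for 6 samples. Chance alone sets a sample apart in about 1 in 20 groups, and many of these genes move together, so the counts are not independent. That rate does not apply to the 12 named genes chosen for their spread among the tumours. Tumour 5 was the one apart for 23 of the 34 genes, tumour 1 for 5, tumour 3 for 4 and tumour 4 for 2. Each value below is followed by the range of the other 5 tumours.

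Tumour 5 was apart on the high side for the connective tissue genes Col1a1 (427 CPM against 19.6 to 44.8, ratio 0.737), Col3a1 (538 CPM against 53.5 to 103, ratio 0.718) and Vim (471 CPM against 58.8 to 83, ratio 0.836), and for genes of vessels and their signals, Esm1 (231 CPM against 23.1 to 28.1, ratio 0.915), Apln (76.5 CPM against 0.708 to 3.06, ratio 0.773), Notch4 (117 CPM against 11.1 to 21.2, ratio 0.734), Cxcr4 (75.5 CPM against 3.1 to 6.49, ratio 0.794) and Hey1 (8.39 CPM against 1.47 to 2.58, ratio 0.721). It was also high for Anxa2 (538 CPM against 209.99 to 276, ratio 0.709), Btc (33.5 CPM against 11.7 to 15.4, ratio 0.744), Fabp4 (255 CPM against 29.8 to 40.1, ratio 0.864), Pkm2 (287 CPM against 26.3 to 46.9, ratio 0.761), Plat (39.2 CPM against 5.67 to 10.6, ratio 0.69), Plaur (20.0 CPM against 3.59 to 5.62, ratio 0.76) and Tlr4 (4.9 CPM against 1.99 to 2.73, ratio 0.673). On the low side it was apart for the metabolic genes Dmgdh (47.3 CPM against 78.1 to 95.2, ratio 0.715), Gls2 (105 CPM against 209 to 312, ratio 0.633) and Cyp39a1 (19.6 CPM against 50.1 to 57, ratio 0.878), for the mitosis genes Mki67 (7.49 CPM against 25.3 to 49, ratio 0.638) and Ube2c (1.02 CPM against 5.77 to 9.04, ratio 0.754), and for Col18a1 (371 CPM against 589 to 712, ratio 0.709), Cp (1634 CPM against 3398 to 5209, ratio 0.632) and Hspa5 (1125 CPM against 2016 to 2709.6, ratio 0.664).

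Tumour 1 was apart on the low side for Cyp2b9 (1.39 CPM against 45.1 to 217, ratio 0.656), Dbp (1.14 CPM against 29.8 to 102, ratio 0.688), Klrb1b (0.547 CPM against 44.8 to 217, ratio 0.685), Scel (1.89 CPM against 4.54 to 6.31, ratio 0.701) and Spp1 (42 CPM against 485 to 1685, ratio 0.661). These include the clock gene Dbp and the macrophage and stromal gene Spp1. Tumour 3 was low for Abcc4 (14.3 CPM against 44.9 to 79.1, ratio 0.664) and Gsta1 (2.56 CPM against 28.8 to 66.6, ratio 0.722) and high for Cebpa (278 CPM against 198 to 216, ratio 0.746) and Cyp2b10 (1.74 CPM against 0.0795 to 0.506, ratio 0.643). Tumour 4 was high for Mup1 (0.779 CPM against 0 to 0.235, ratio 0.633) and Mup12 (0.606 CPM against 0.0497 to 0.159, ratio 0.767), near-identical genes at levels close to the detection limit.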

How the results depend on the processing

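The number of genes called stayed within 1.5 times of 6714 under every alternative run: 6710 with RLE factors, 6872 with upper-quartile factors, 5491 on library totals, 6582 with no filter, 6353 with a filter of 1 CPM, 7424 with DESeq2, 8748 with voom, 6790 with all 15 libraries in 1 fit and 6715 without robust estimation. Upper-quartile factors gave 4363 higher and 2509 lower. Leaving out 1 library gave 4860 to 6966, lowest without normal liver 1. For Hmgb1 the difference of 0.24 was 0.31 on library totals (exact permutation p = 0.0476), and the cause was not tested. With 1 library left out it ranged from 0.0965 (without normal liver 1, exact permutation p = 0.5) to 0.42 (without normal liver 3, exact permutation p = 0.0357).

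Tumours and normal livers that share a replicate number showed little shared deviation (r = 0.032, -0.099 and 0.14 for numbers 1, 2 and 3). No normal liver correlated best with the tumour of its own number, although normal liver 3 came close (0.16 with tumour 2). These values show no clear pairing by number, and with 3 normal livers they cannot exclude one. With the replicate number as a block 6718 genes were called, 3415 higher and 3303 lower, and Cela2a, Cyp2b9, Gsta1, Nr4a1 and Spp1 lost their calls. With the libraries numbered 1 to 3 alone and no block, a setting chosen after seeing the data, 6886 were called.

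Of 280 named genes tested, 239 were called, 209 kept the call under every alternative, 19 lost it when some single library was left out, and 0 changed direction while called. Fitting all 15 libraries together ended the calls of Ankrd1 (adjusted p = 0.16), Cela1, Cyp39a1, Fgf21, Gls2, Hal, Jag1, Pck1 and Sds; voom ended those of Nr4a1, Prom2 and Tmem54; no filter ended those of Apln, Hamp and Sult2a2; and library totals ended that of Tlr4. Of 112 list counts, 57 moved by over 1.5 times under some alternative, 23 of them without normal liver 3. Precision is limited by 3 normal livers, by tumours of unstated source, and, for genes near the level that 0 counts allow, by depth.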

Other observations

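Genes that cut or guard the extracellular matrix were higher in 11 of 20 tested cases and lower in 1 (median 2.0), and whichever normal liver was left out the number higher was 7. Plat and Plaur, an activator of plasminogen and the receptor of its relative urokinase, were at 5.67 to 39.2 CPM (median 7.53) in the tumours and 0.731, 0.529 and 1.03 CPM in normal livers (4.1 ± 0.78, adjusted p = 0.00182, and 3.34 without tumour 5) and 3.59 to 20.0 CPM (median 4.92) in the tumours and 0.284, 0.733 and 0.492 CPM in normal livers (3.82 ± 0.72, adjusted p = 0.00173, and 3.17 without tumour 5), both without overlap. Mmp7, a protease of epithelia, had no count in the normal livers and 0.159 to 3.17 CPM (median 0.765) in the tumours, at least 27.1-fold higher against 3 counts over the group and at least 15.7-fold without tumour 5.

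Of 17 tested genes of iron and copper handling 7 were lower and 3 higher (median -0.09); without normal liver 2 the number lower was 4, and without tumour 5 the number higher was 5. Trfr2, the transferrin receptor of hepatocytes that senses iron, was at 146 to 322 CPM (median 261) in the tumours and 612, 562 and 529.98 CPM in normal livers (-1.18 ± 0.22, adjusted p = 0.00178), and Tfrc, the receptor that takes up transferrin, at 31.6 to 64.2 CPM (median 48.7) in the tumours and 20.9, 26 and 17.6 CPM in normal livers (1.13 ± 0.24, adjusted p = 0.00298), each without overlap and in opposite directions. Atp7b, which loads copper onto ceruloplasmin and into bile, fell by 1.23 ± 0.26, and Cp, ceruloplasmin, rose by 1.35. Alas2, the erythroid enzyme that starts heme synthesis, was at 7.6 to 47.2 CPM (median 17.8) in the tumours and 158, 154 and 140.4 CPM in normal livers, with no tumour near the normal livers (-2.82 ± 0.44, adjusted p = 0.00055).

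Of 16 tested genes of telomerase, DNA repair and checkpoints 5 were higher and 1 lower (median 0.37), and without normal liver 3 the number higher was 3. Chek1, a checkpoint kinase, was at 2.38 to 4.57 CPM (median 2.79) in the tumours and 0.406, 0.489 and 0.246 CPM in normal livers (3.01 ± 0.37, adjusted p = 0.00012), while Parp1, which marks strand breaks, fell by 0.72 ± 0.13. Tert, the telomerase gene, was not called at 7.29 to 20.0 CPM (median 9.91) in the tumours and 9.55, 11.3 and 13.8 CPM in normal livers. Among growth factor genes, Btc, betacellulin, was at 11.7 to 33.5 CPM (median 13.5) in the tumours and 2.6, 2.36 and 4.14 CPM in normal livers (2.47 ± 0.4, adjusted p = 0.000723), and Klb, the FGF21 co-receptor, and Irs2, an insulin receptor substrate, fell by 2.02 ± 0.25 and 2.49 ± 0.53 (-1.77 without normal liver 2).

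Fabp4, a lipid carrier of fat cells, was higher, at 30.0, 35.7, 40.1, 29.8, 255 and 35 CPM in tumours 1 to 6 and 6.95, 7.82 and 6.35 CPM in normal livers 1 to 3 (3.34 ± 0.86, adjusted p = 0.00913, and 2.28 without tumour 5). Cidec, a lipid droplet protein, was higher too, at 28.7, 15.2, 10.1, 5.75, 2.04 and 24.7 CPM in tumours 1 to 6 and 1.5, 1.67 and 3.15 CPM in normal livers 1 to 3. Fabp4 was highest in tumour 5 and Cidec lowest there, within the range of the normal livers, and the call of Cidec ended without normal liver 1 or normal liver 2 (highest adjusted p = 0.0597).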
